A study of Mus musculus with 6 samples.

Results

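A set of 10 genes of the matrix metalloproteinase (MMP) system was followed in mouse fibroblasts given vesicles from human breast cells: the proteinases Mmp2, Mmp3, Mmp9, Mmp10, Mmp13, Mmp14 and Mmp19, and the inhibitors Timp1, Timp2 and Timp3. They were chosen by name from the table of gene values, and all 10 of the 10 names were found among its 20475 genes. The recipient cells were NIH3T3, an immortalised mouse embryonic fibroblast line at passage 5 according to the labels, grown in medium with 10% fetal bovine serum. RNA was taken 48 h after the cells received extracellular vesicles (EVs) of MDA-MB-231, a triple-negative breast cancer line, or EVs of MCF10A, a non-tumorigenic breast epithelial line, or PBS, the buffer in which the vesicles were suspended. There were 2 libraries in each of the 3 groups, and no group carried a genetic alteration according to the labels. NIH3T3 is 1 established line grown as a monoculture, so other cells of a tissue were not part of the model. The labels do not say whether replicates came from separate cultures or vesicle preparations. Each p-value thus reflects the spread between the libraries at hand, estimated for a gene partly from the other genes, and no more. That spread may be technical.

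MMPs are zinc-dependent endopeptidases that cut collagens, proteoglycans, glycoproteins and many cell-surface proteins. Most are secreted as inactive proenzymes and become active once the propeptide is removed, by plasmin, by furin or by another MMP. Tissue inhibitors of metalloproteinases (TIMPs) bind the active site, and Timp2 also takes part, with the membrane enzyme Mmp14, in the activation of pro-Mmp2 at the cell surface. Stromal fibroblasts are a main source of secreted MMPs and TIMPs around tumours. The measurements below are of transcripts and say nothing of enzyme activity.

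The libraries held 22451173 to 29315530 reads over genes, and 14553 to 14856 genes had a read in a library. At this depth a count of 0 allowed up to 0.102 to 0.134 CPM (a gene's reads scaled to the size of its library), from a limit of 3 reads and for counting error only. All 10 of the 10 fibroblast markers examined averaged at least 100 normalised reads, and their sum was 396439 to 405642 in MDA-MB-231 EV cells, 409079 to 421878 in MCF10A EV cells and 479835 to 480620 in PBS cells. Of 7 macrophage and leukocyte markers in the table, Cd14 was the 1 that averaged at least 100, Emr1 had 0 reads in every library, and the sum was 998 to 1063 in MDA-MB-231 EV cells, 1786 to 1840.0 in MCF10A EV cells and 3043 to 3150.2 in PBS cells. Of 5 endothelial markers, Cdh5 alone averaged at least 100, with sums of 149 to 188 in MDA-MB-231 EV cells, 291 to 338 in MCF10A EV cells and 354 to 363 in PBS cells. None of 8 epithelial markers averaged at least 100, Epcam, Krt5 and Krt18 had 0 reads, and the sums were 28.5 to 37.2 in MDA-MB-231 EV cells, 35.4 to 40.7 in MCF10A EV cells and 44.6 to 48.7 in PBS cells. Of 8 chondrocyte and osteoblast markers, cells known for Mmp13, Sox9 alone averaged at least 100, Alpl and Ibsp had 0 reads, and the sums were 1271 to 1332 in MDA-MB-231 EV cells, 861 to 1001 in MCF10A EV cells and 1083 to 1094 in PBS cells. These sums moved with the groups, and their part in the results below was not tested. Single markers could run the other way. Cdh1, an epithelial marker, had 4 and 2 reads with MDA-MB-231 EVs, 2 and 3 with MCF10A EVs and 0 with PBS. It was called higher with either vesicle relative to PBS, from counts close to the limit of detection.

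In cells given MDA-MB-231 EVs, transcripts of 6 of the 7 MMPs fell relative to PBS. Mmp13 fell most among the 10 genes, 4.63-fold, followed by Mmp10 (1.71-fold), Mmp3 (1.49-fold), Mmp2 (1.35-fold), Mmp14 (1.23-fold) and Mmp19 (1.16-fold). Timp1 was 1.09-fold lower, and Timp2 and Timp3 were not called. In all, 7 of the 10 genes were called lower and 0 higher, by limma on log2(normalised reads + 1) at a Benjamini-Hochberg adjusted p under 0.05. At an unadjusted p under 0.05, 1 was higher (Timp2), and edgeR and DESeq2 on the recovered reads each called 0 higher. Of all 15025 genes tested, 34.8% were called in this comparison, 16.9% lower and 17.9% higher. The median log2 change was -0.36 over the 10 genes and 0.01 over all genes tested. Under limma without a trend in the variance, Mmp19 (adjusted p = 0.0532) and Timp1 (adjusted p = 0.0993) were not called. With libraries scaled by their total reads, 67.8% of the calls over all genes were higher, against 51.4% under the deposited scaling, and Timp2 was then called higher while Timp1 was not called.

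In cells given MCF10A EVs, 4 MMPs fell relative to PBS and 2 of the 10 genes rose. Mmp13 was 2.33-fold lower, Mmp2 1.28-fold, Mmp14 1.23-fold and Mmp19 1.07-fold. Mmp3 was 1.13-fold higher and Timp1 1.09-fold higher. The 4 lower and 2 higher calls stood beside 31.7% of all tested genes called, 14.6% lower and 17.1% higher. The median log2 change was -0.08 over the 10 genes and 0.0001 over all genes tested. Under limma without a trend in the variance, 3 of the 10 genes were called and none higher.

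Set directly against MCF10A EVs, MDA-MB-231 EVs left 5 of the 10 genes lower and 0 higher: Mmp13 (1.99-fold), Mmp3 (1.69-fold), Mmp10 (1.63-fold), Timp1 (1.19-fold) and Mmp19 (1.08-fold). By limma at an unadjusted p under 0.05, and by edgeR and DESeq2, 0 were likewise higher. Of all genes tested, 16.9% were called here, 10.1% lower and 6.84% higher. The median log2 change was -0.11 over the 10 genes and -0.0006 over all genes tested. With libraries scaled by their total reads, 61.7% of the calls over all genes were higher, and with quantile scaling 50.7%, against 40.4% under the deposited scaling, and under both Timp2 was called higher. Under limma without a trend, 3 of the 10 genes were called, without Mmp19 and Timp1, and 378 of all genes in place of 2541. The comparisons of the EV groups with PBS share the PBS libraries, so their changes are not independent of each other.

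**Figure D1:**
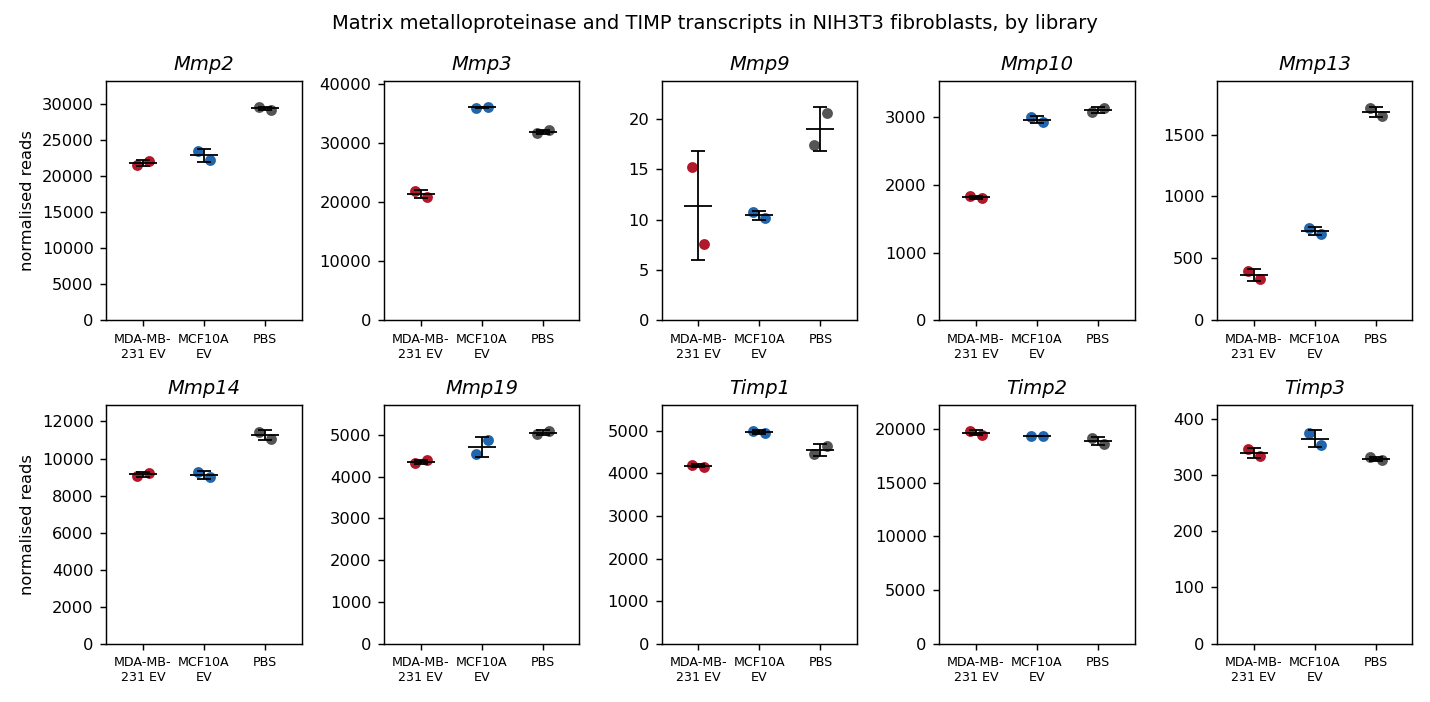
Normalised reads of each of the 10 genes (vertical axes from 0, each with its own scale) in the 2 libraries of MDA-MB-231 EV, MCF10A EV and PBS cells; points are libraries and bars the mean ± SD. Mmp13 lies at 399 and 330.2 in MDA-MB-231 EV cells, 745 and 699 in MCF10A EV cells and 1714 and 1653 in PBS cells, while Mmp3 and Mmp10 are low in MDA-MB-231 EV cells.

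Mmp13, collagenase 3, cuts fibrillar collagens and was the called member with the widest relative range between groups. It had 399 and 330.2 normalised reads in MDA-MB-231 EV cells, 745 and 699 in MCF10A EV cells and 1714 and 1653 in PBS cells. The 3 groups formed 3 separate steps, with no overlap between libraries. Against PBS, the log2 change was -2.21 (SE 0.076, adjusted p = 1.38e-11) with MDA-MB-231 EVs and -1.22 (95% interval -1.38 to -1.06, adjusted p = 2.43e-08) with MCF10A EVs. Between the EV groups it was -0.99 (-1.15 to -0.83, adjusted p = 3.48e-07). In bulk RNA, fewer cells expressing a gene and less RNA per cell cannot be told apart. Its mean ± SD was 365 ± 48.6, 722 ± 32.7 and 1684 ± 43.0 normalised reads in MDA-MB-231 EV, MCF10A EV and PBS cells (n = 2 each).

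Mmp3 (stromelysin 1), which degrades proteoglycans, fibronectin and laminin and can activate procollagenases, was the most abundant of the 10 transcripts per length in every group. It had 21907 and 20843 normalised reads in MDA-MB-231 EV cells, 35995 and 36166 in MCF10A EV cells and 31678 and 32208 in PBS cells. The MCF10A EV libraries were the highest and the MDA-MB-231 EV libraries the lowest, without overlap. Mmp3 fell with MDA-MB-231 EVs relative to PBS (log2 change -0.58, 95% interval -0.64 to -0.52, adjusted p = 7.1e-10). It rose with MCF10A EVs (0.18, 0.12 to 0.24, adjusted p = 0.000219), a call that was lost under limma without a trend (adjusted p = 0.0634). The direct difference between the EV groups was -0.76 (-0.82 to -0.70, adjusted p = 2.33e-10).

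Mmp10 (stromelysin 2), with substrates close to those of Mmp3, was lower in MDA-MB-231 EV cells than in the other groups. It had 1835 and 1803 normalised reads in MDA-MB-231 EV cells, 3006 and 2928 in MCF10A EV cells and 3077 and 3146 in PBS cells. The log2 change with MDA-MB-231 EVs was -0.77 relative to PBS (95% interval -0.85 to -0.70, adjusted p = 3.44e-10) and -0.71 relative to MCF10A EVs (-0.78 to -0.63, adjusted p = 3.82e-09). The MCF10A EV libraries lay below the PBS libraries without overlap, but that change did not pass the test (-0.07, -0.14 to 0.01, adjusted p = 0.162). Mmp3 and Mmp10 share 140 stretches of 50 bases, 7.99% and 8.37% of all such stretches of each gene, so reads from them could in part be assigned to either, depending on the counting, which is not given in the sources used here. No such stretch was shared between the other 8 members and the 27 family genes compared.

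Mmp3, Mmp10 and Mmp13 lie in 1 cluster on chromosome 9, and their RefSeq promoter windows (assembly GRCm38.p6, 250 bases before to 50 after the gene's start, plus strand) are shown because these are the 3 members that differed most between the EV groups. Capitals mark matches to the AP-1 motif (TGANTCA) and to TATAAA.
Mmp13, chr9:7272264-7272563: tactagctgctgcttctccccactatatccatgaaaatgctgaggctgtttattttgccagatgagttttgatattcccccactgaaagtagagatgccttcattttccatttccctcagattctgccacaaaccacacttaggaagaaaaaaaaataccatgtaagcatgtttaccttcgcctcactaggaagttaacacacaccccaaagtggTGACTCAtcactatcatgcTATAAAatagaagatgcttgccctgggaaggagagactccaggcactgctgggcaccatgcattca
Mmp3, chr9:7445572-7445871: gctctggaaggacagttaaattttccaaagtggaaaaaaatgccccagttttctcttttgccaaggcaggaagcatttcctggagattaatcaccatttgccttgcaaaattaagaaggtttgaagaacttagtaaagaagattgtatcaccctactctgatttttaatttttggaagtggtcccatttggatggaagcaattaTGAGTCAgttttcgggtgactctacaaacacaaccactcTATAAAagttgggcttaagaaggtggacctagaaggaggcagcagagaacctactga
Mmp10, chr9:7502092-7502391: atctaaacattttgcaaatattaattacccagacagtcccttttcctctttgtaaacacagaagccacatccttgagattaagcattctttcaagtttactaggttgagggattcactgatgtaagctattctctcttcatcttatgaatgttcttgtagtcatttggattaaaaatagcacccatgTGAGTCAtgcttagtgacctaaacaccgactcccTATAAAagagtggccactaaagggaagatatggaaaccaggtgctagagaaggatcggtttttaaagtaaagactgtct
The AP-1 motif, bound by Fos and Jun proteins, begins 35 bases before the start of Mmp13, 46 before that of Mmp3 and 63 before that of Mmp10. TATAAA begins 16, 7 and 29 bases before the start of Mmp13, Mmp3 and Mmp10. Windows were given for 7 of the 10 members and not for Mmp2, Mmp9 and Mmp19, whose motifs are thus unknown. Of the 7, these 3 were the ones with an exact match to either motif on either strand. Mmp14, Timp1, Timp2 and Timp3 had neither, but sequences that differ from a motif by a letter were not searched. Of all 32851 windows of the same length, 7.81% held TGANTCA and 13.6% held TATAAA. The ETS motif AGGAAG was in 5 of the 7 windows, those of Mmp3, Mmp13, Mmp14, Timp1 and Timp3, against 35.4% of all windows. These are matches of letters in a window, not tested binding sites.

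The other genes of the chromosome 9 cluster were hardly read. In RefSeq order the 10 genes are Mmp13, Mmp12, Mmp1b, Mmp3, Mmp1a, Mmp10, Mmp8, Mmp27, Mmp20 and Mmp7. Mmp20 and Mmp7 had 0 reads in every library. Mmp1b, a rodent gene related to human interstitial collagenase, averaged 18.2 ± 2.8, 32.8 ± 8.1 and 18.6 ± 1.3 normalised reads in MDA-MB-231 EV, MCF10A EV and PBS cells (SD, n = 2 each). Mmp8, the neutrophil collagenase, averaged 13.5 ± 2.4 in MDA-MB-231 EV cells, 6.05 ± 2.4 in MCF10A EV cells and 7.61 ± 2.9 in PBS cells. Mmp1a, Mmp12 and Mmp27 averaged at most 34.5 normalised reads in a group, and none of the 5 weakly read genes was called in any comparison.

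Mmp2 (gelatinase A) cuts denatured collagen and basement membrane collagen, and it was lower with vesicles of either line. It had 21485 and 22085 normalised reads in MDA-MB-231 EV cells, 23492 and 22186 in MCF10A EV cells and 29497 and 29139 in PBS cells. All 4 EV libraries lay below both PBS libraries. The log2 change relative to PBS was -0.43 (SE 0.03, adjusted p = 3.9e-08) with MDA-MB-231 EVs and -0.36 (95% interval -0.43 to -0.30, adjusted p = 5.15e-07) with MCF10A EVs. The EV groups did not differ past the threshold (-0.07, -0.13 to -0.0035, adjusted p = 0.15).

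Mmp9 (gelatinase B), the other gelatinase and a product of many inflammatory cells, was close to the limit of detection. It had 15.2 and 7.58 normalised reads in MDA-MB-231 EV cells, 10.7 and 10.1 in MCF10A EV cells and 17.4 and 20.6 in PBS cells, from 15 and 7 reads with MDA-MB-231 EVs, 10 and 12 with MCF10A EVs and 16 and 22 with PBS. The PBS libraries were the highest, but the intervals were wide. The log2 change was -0.76 (95% interval -1.57 to 0.05, adjusted p = 0.141) with MDA-MB-231 EVs and -0.80 (-1.61 to 0.0035, adjusted p = 0.125) with MCF10A EVs, neither called. Without replicate 1 of the MDA-MB-231 EV group, the MDA-MB-231 EV change was -1.22 and was called (adjusted p = 0.0475). Between the EV groups it was 0.04 (-0.76 to 0.85, adjusted p = 0.967), and the libraries overlapped.

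Mmp14 (MT1-MMP), the membrane-anchored enzyme that cuts fibrillar collagen and activates pro-Mmp2, was lower with either vesicle and by the same amount to 2 decimals. It had 9049.7 and 9226 normalised reads in MDA-MB-231 EV cells, 9280.5 and 8979 in MCF10A EV cells and 11443 and 11066 in PBS cells. The log2 change relative to PBS was -0.30 with MDA-MB-231 EVs (95% interval -0.36 to -0.24, adjusted p = 1.18e-06) and -0.30 with MCF10A EVs (-0.36 to -0.24, adjusted p = 2.35e-06). The EV libraries overlapped each other, and the interval of their difference was -0.06 to 0.06 (adjusted p = 0.99).

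Mmp19, a secreted MMP outside the main substrate classes, had 4321 and 4392 normalised reads in MDA-MB-231 EV cells, 4541 and 4886 in MCF10A EV cells and 5013 and 5091 in PBS cells. The groups fell in this order without overlap, and the steps were small. The log2 change was -0.21 (adjusted p = 0.000222) with MDA-MB-231 EVs relative to PBS, -0.10 (adjusted p = 0.0429) with MCF10A EVs relative to PBS, and -0.11 (adjusted p = 0.0421) between the EV groups. Over 18 alternative settings or left-out libraries each, these were called in 17, 10 and 7. Without replicate 1 of the MCF10A EV group the MCF10A EV change was -0.05 (adjusted p = 0.393). On the opposite strand, Tmem198b shares 789 exon bases with Mmp19 and averaged 1540.0, 1620 and 1715 normalised reads in MDA-MB-231 EV, MCF10A EV and PBS cells. The kit marked strand, but whether the counting used it is not given in the sources used here, so Mmp19 values are uncertain to that extent.

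**Figure D2:**
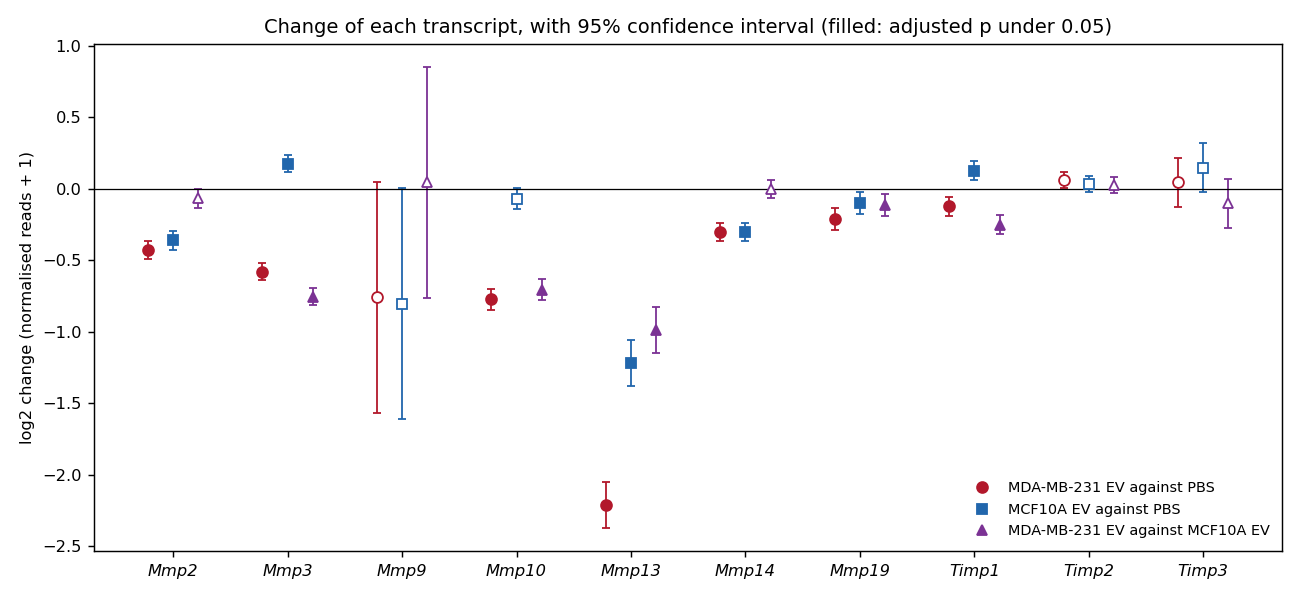
Log2 change of normalised reads (with 1 added) for each gene in the 3 comparisons, as points with 95% confidence intervals from limma; filled points have an adjusted p under 0.05. Mmp13 lies lowest, at -2.21 with MDA-MB-231 EVs and -1.22 with MCF10A EVs relative to PBS, and Mmp3 lies below 0 with MDA-MB-231 EVs (-0.58) and above it with MCF10A EVs (0.18).

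Among the inhibitors, Timp1, a secreted inhibitor induced by many cytokines and also a growth factor for some cells, lay on opposite sides of PBS in the EV groups. It had 4201 and 4157 normalised reads in MDA-MB-231 EV cells, 4999 and 4941 in MCF10A EV cells and 4455 and 4645 in PBS cells, without overlap. The log2 change relative to PBS was -0.12 (adjusted p = 0.00681) with MDA-MB-231 EVs and 0.13 (adjusted p = 0.00607) with MCF10A EVs, and the direct difference was -0.25 (adjusted p = 6.09e-05), a call lost under limma without a trend (adjusted p = 0.0677). The lower call relative to PBS was lost under scaling by library totals (-0.06, adjusted p = 0.165), under quantile scaling (adjusted p = 0.0591), under limma without a trend (adjusted p = 0.0993) and without PBS replicate 2 (-0.09, adjusted p = 0.106). The higher call was lost without PBS replicate 1 (adjusted p = 0.0951) and under limma without a trend (adjusted p = 0.103).

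Timp2, which binds Mmp14 and pro-Mmp2 besides inhibiting MMPs, was the most abundant inhibitor by reads. It had 19786 and 19458 normalised reads in MDA-MB-231 EV cells, 19309.5 and 19289.6 in MCF10A EV cells and 19115 and 18567 in PBS cells. The libraries of the 3 groups did not overlap, but no comparison was called under the deposited scaling: 0.06 (95% interval 0.0023 to 0.12, adjusted p = 0.102), 0.03 (adjusted p = 0.359) and 0.02 (adjusted p = 0.616) on the log2 scale for MDA-MB-231 EVs and then MCF10A EVs relative to PBS, and for the direct difference between the EV groups. The first became 0.12 (adjusted p = 0.000376) with scaling by library totals and 0.13 (adjusted p = 0.000411) with quantile scaling. The direct difference became 0.07 (adjusted p = 0.0494) and 0.12 (adjusted p = 0.00246) under these scalings. Timp3, an inhibitor that stays bound to the matrix, had 345 and 333 normalised reads in MDA-MB-231 EV cells, 375 and 354 in MCF10A EV cells and 331 and 326 in PBS cells. It was not called in any comparison, with intervals of -0.13 to 0.22 for MDA-MB-231 EVs and -0.03 to 0.32 for MCF10A EVs relative to PBS, and -0.28 to 0.07 between the EV groups. Syn3 shares 1733 exon bases with Timp3 on the opposite strand but averaged 23.9, 22.7 and 23.4 normalised reads in MDA-MB-231 EV, MCF10A EV and PBS cells.

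Summed over the 7 enzymes, MMP reads were lowest in MDA-MB-231 EV cells. The sum was 59011 and 58688 normalised reads in MDA-MB-231 EV cells, 77071 and 75853 in MCF10A EV cells and 82439 and 82325 in PBS cells, which is 0.244%, 0.308% and 0.326% of all reads on average. The sum over the 3 inhibitors varied less, at 24332 and 23948 in MDA-MB-231 EV cells, 24683 and 24585 in MCF10A EV cells, and 23901 and 23539 in PBS cells. The ratio of summed MMP to summed TIMP reads was 2.44 ± 0.018 in MDA-MB-231 EV cells, 3.10 ± 0.026 in MCF10A EV cells and 3.47 ± 0.034 in PBS cells (SD, n = 2 each), given as a description with no test. The ratio of Mmp14 to Timp2 reads was 0.466 ± 0.012 in MDA-MB-231 EV cells, 0.473 ± 0.011 in MCF10A EV cells and 0.597 ± 0.002 in PBS cells. These are ratios of reads, in which long transcripts weigh more, and not ratios of molecules.

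The make-up of the MMP reads also differed between groups. Mmp3 held 37.1% and 35.5% of the sum in MDA-MB-231 EV cells, 46.7% and 47.7% in MCF10A EV cells and 38.4% and 39.1% in PBS cells. Mmp13 held 0.676% and 0.563% in MDA-MB-231 EV cells, 0.967% and 0.921% in MCF10A EV cells and 2.08% and 2.01% in PBS cells. The number of Mmp3 reads per Mmp13 read was 59.0 ± 5.80 in MDA-MB-231 EV cells, 50.03 ± 2.43 in MCF10A EV cells and 19.0 ± 0.71 in PBS cells, while per Mmp10 read it was 11.7 in MDA-MB-231 EV cells, 12.2 in MCF10A EV cells and 10.3 in PBS cells.

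**Figure D3:**
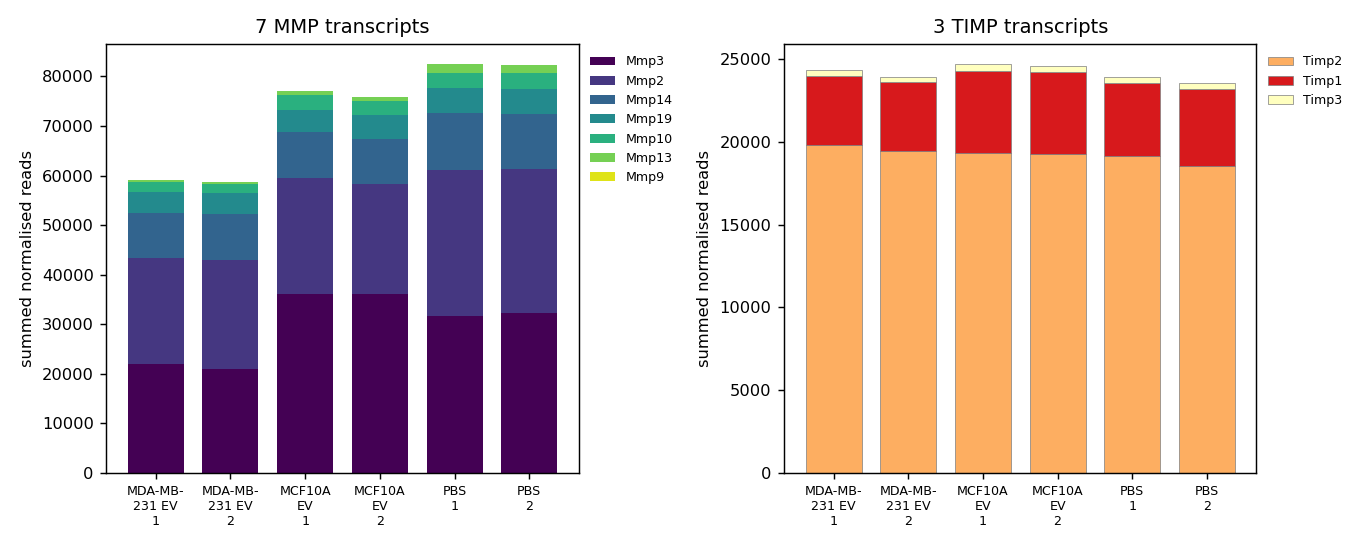
Normalised reads summed over the 7 MMP genes (left) and the 3 TIMP genes (right) in each of the 6 libraries, with each gene's part stacked. The MMP sum is 59011 and 58688 in MDA-MB-231 EV cells and 82439 and 82325 in PBS cells, while the TIMP sum lies between 23539 and 24683 in all 6 libraries.

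Levels can be compared between genes only per length, here as CPM per kilobase of merged exon in the GENCODE vM21 annotation. Mmp3 had the highest level in every group, at 492 ± 11.6 in MDA-MB-231 EV cells, 806 in MCF10A EV cells and 702 ± 9.28 in PBS cells (n = 2 each). Mmp2 was next, at 268 ± 8.32 in MDA-MB-231 EV cells, 273 in MCF10A EV cells and 344 ± 2.46 in PBS cells. The inhibitors Timp1 and Timp2 followed, with Timp2 above Timp1 in MDA-MB-231 EV cells (209 and 195) and Timp1 above Timp2 in MCF10A EV cells (225 and 199) and PBS cells (203 and 192). Mmp14, Mmp10 and Mmp19 lay between 43.8 and 74.8, and Mmp10 was the lowest of these 3 in MDA-MB-231 EV cells. Mmp13 stood at 5.64 ± 0.70 in MDA-MB-231 EV cells, 10.9 in MCF10A EV cells and 24.9 in PBS cells. Timp3 was at 1.60 to 1.80 and Mmp9 at 0.119 to 0.212. Within each group, the libraries of neighbouring genes in this order did not overlap. The order also depends on the exon lengths used, which the spread between libraries does not measure. The annotation used for counting is not given, so the order of genes with close levels is uncertain.

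**Figure D4:**
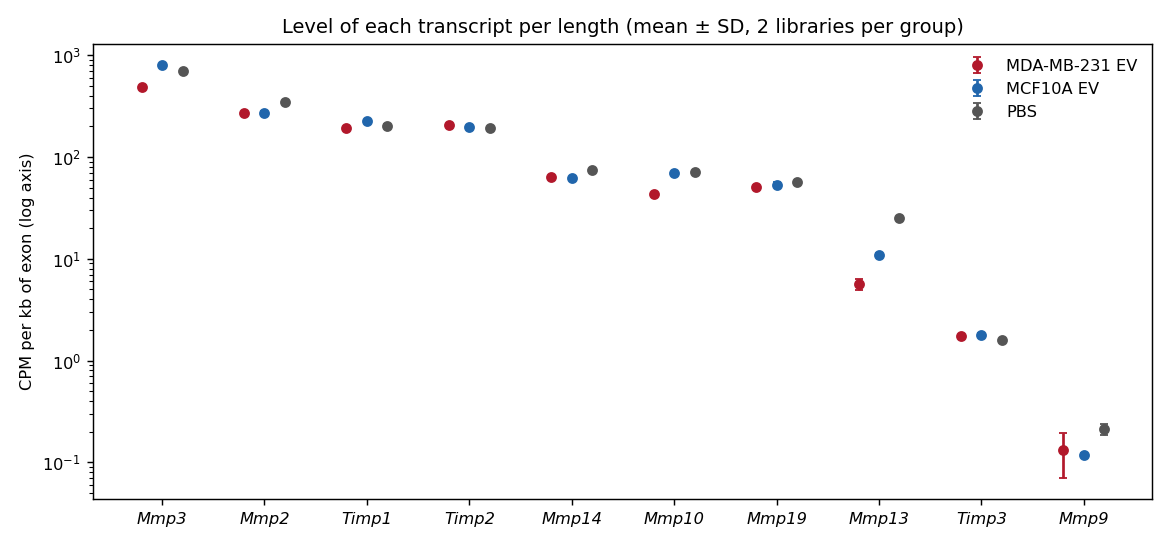
Level of each transcript in CPM per kilobase of exon (log axis) in the 3 groups, as mean ± SD of 2 libraries. Mmp3 is highest in every group, and Mmp13 is the gene whose groups stand farthest apart among those above 1 CPM per kilobase, at 5.64, 10.9 and 24.9 in MDA-MB-231 EV, MCF10A EV and PBS cells.

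Genes that control MMP activity were read from a list of 20, of which 16 could be tested. With MDA-MB-231 EVs 12 fell and 0 rose relative to PBS by limma, with a median log2 change of -0.34, and 0 were higher at an unadjusted p under 0.05 or by edgeR or DESeq2, but 1 was with scaling by library totals. With MCF10A EVs 7 fell and 1 rose (-0.17). Between the EV groups 10 were lower and 1 higher with MDA-MB-231 EVs (-0.17), where limma without a trend called 3 lower. Of all genes tested, 16.9%, 14.6% and 10.1% were lower in these 3 comparisons, and 17.9%, 17.1% and 6.84% were higher. Itgb3, the integrin subunit that pairs with Itgav, averaged 1058 ± 63.3 normalised reads in MDA-MB-231 EV cells and 2048 ± 5.69 in PBS cells (1.94-fold lower, adjusted p = 1.75e-09). Plau, the urokinase that turns plasminogen into plasmin, averaged 424 ± 54.7 in MDA-MB-231 EV cells and 751 ± 60.1 in PBS cells (1.77-fold lower, adjusted p = 1.48e-06). Plaur, its receptor, averaged 559 ± 7.35 in MDA-MB-231 EV cells and 920.1 ± 50.9 in MCF10A EV cells (1.64-fold lower, adjusted p = 5.15e-06).

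Of 20 transcription factors known to act at MMP promoters, all 20 were tested. Relative to PBS, 15 fell and 0 rose with MDA-MB-231 EVs (median log2 change -0.25), beside 16.9% of all genes tested lower and 17.9% higher. With MCF10A EVs 16 fell and 1 rose (-0.26), beside 14.6% of all genes lower and 17.1% higher, and the 16 became 10 under limma without a trend. With MDA-MB-231 EVs, 2 (Etv4 and Sp1) were higher at an unadjusted p under 0.05 by limma, and edgeR and DESeq2 called 0 higher, quantile scaling 1 and scaling by library totals 3. Between the EV groups 4 were lower and 3 higher with MDA-MB-231 EVs (-0.05), beside 10.1% and 6.84% of all genes. Fos, a component of AP-1, averaged 76.0 ± 2.54 normalised reads in MDA-MB-231 EV cells, 112 ± 0.69 in MCF10A EV cells and 212 ± 3.73 in PBS cells, and its adjusted p was 6.22e-07 and 0.000109 in the EV groups against PBS and 0.00997 between them. Fosb was 2.88-fold lower with MDA-MB-231 EVs (67.0 ± 7.14 against 194 ± 5.65 in PBS cells, adjusted p = 1.22e-06). Fos and Fosb are given for the size of their falls. Not every Fos and Jun gene of the list was called between the EV groups. Egr1, an immediate early factor, was 2.06-fold lower with MCF10A EVs (943 ± 19.8 against 1949 ± 97.1 in PBS cells, adjusted p = 2.94e-09). With MDA-MB-231 EVs Egr1 was 2.29-fold lower than in PBS cells (850 ± 43.4, adjusted p = 2.24e-10). Runx2, a factor that acts at the Mmp13 promoter in bone cells, was 1.17-fold higher with MDA-MB-231 EVs than with MCF10A EVs (1655 ± 68.8 against 1417 ± 38.0, adjusted p = 0.00285). In PBS cells Runx2 averaged 1596 ± 44.3. Relative to PBS it was called lower with MCF10A EVs and was not called with MDA-MB-231 EVs (adjusted p = 0.419).

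Of 20 matrix substrates, 19 were tested, and the calls ran in both directions. Relative to PBS, 12 fell and 3 rose with MDA-MB-231 EVs (median log2 change -0.23), beside 16.9% of all genes tested lower and 17.9% higher. With MCF10A EVs 8 fell and 4 rose (-0.09), beside 14.6% and 17.1% of all genes. Between the EV groups 11 were lower and 2 higher with MDA-MB-231 EVs (-0.13), beside 10.1% and 6.84% of all genes. Under limma without a trend the 8 became 4 and the 11 became 3, and the 3 higher with MDA-MB-231 EVs relative to PBS became 1, against 5 with scaling by library totals and 7 with quantile scaling. Tnc, the glycoprotein tenascin C, averaged 52936 ± 2834 normalised reads in MDA-MB-231 EV cells, 97583 ± 2400.0 in MCF10A EV cells and 124506 ± 120.2 in PBS cells, 2.35-fold lower with MDA-MB-231 EVs than PBS (adjusted p = 1.11e-12). Dcn, the collagen-binding proteoglycan decorin, was 1.88-fold lower with MDA-MB-231 EVs (27203 ± 823 against 51043 ± 51.4 in PBS cells, adjusted p = 3.03e-11). Col3a1, a fibrillar collagen chain, rose 1.37-fold with MDA-MB-231 EVs (5449 ± 21.4 against 3968 ± 7.22 in PBS cells, adjusted p = 1.13e-08) and 1.74-fold with MCF10A EVs (6885 ± 4.69 against the same PBS cells, adjusted p = 8.94e-11).

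Of the 17 other MMP and TIMP genes, 15 were tested. By limma, 3 were called with MDA-MB-231 EVs and 3 with MCF10A EVs relative to PBS, where 34.8% and 31.7% of all genes tested were called, and 2 were called between the EV groups, where 16.9% of all genes were. Relative to PBS, Mmp24 rose with MDA-MB-231 EVs while Mmp11 and Mmp17 fell, and with MCF10A EVs Mmp24 and Mmp16 rose while Mmp11 fell. Between the EV groups Mmp24 and Mmp17 were lower with MDA-MB-231 EVs. Mmp17 was close to the limit of detection, with 1 and 3 reads in MDA-MB-231 EV cells, 8 and 8 in MCF10A EV cells and 11 and 11 in PBS cells. Mmp24, a membrane-type MMP, averaged 535 ± 21.2 normalised reads in MDA-MB-231 EV cells, 619 ± 4.90 in MCF10A EV cells and 469 ± 22.7 in PBS cells. Its adjusted p was 0.0371 with MDA-MB-231 EVs and 0.000305 with MCF10A EVs relative to PBS. Mmp11 (stromelysin 3) averaged 521 ± 1.39 in MDA-MB-231 EV cells, 486 ± 20.5 in MCF10A EV cells and 615 ± 18.4 in PBS cells, with an adjusted p of 0.00976 and 0.000952 for the EV groups relative to PBS. The median log2 change of the 15 was -0.12 with MDA-MB-231 EVs and -0.27 with MCF10A EVs relative to PBS, and -0.05 between the EV groups. These medians include other genes close to the limit of detection, such as Mmp12, Mmp15 and Mmp25, and are uncertain to that extent.

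**Figure D5:**
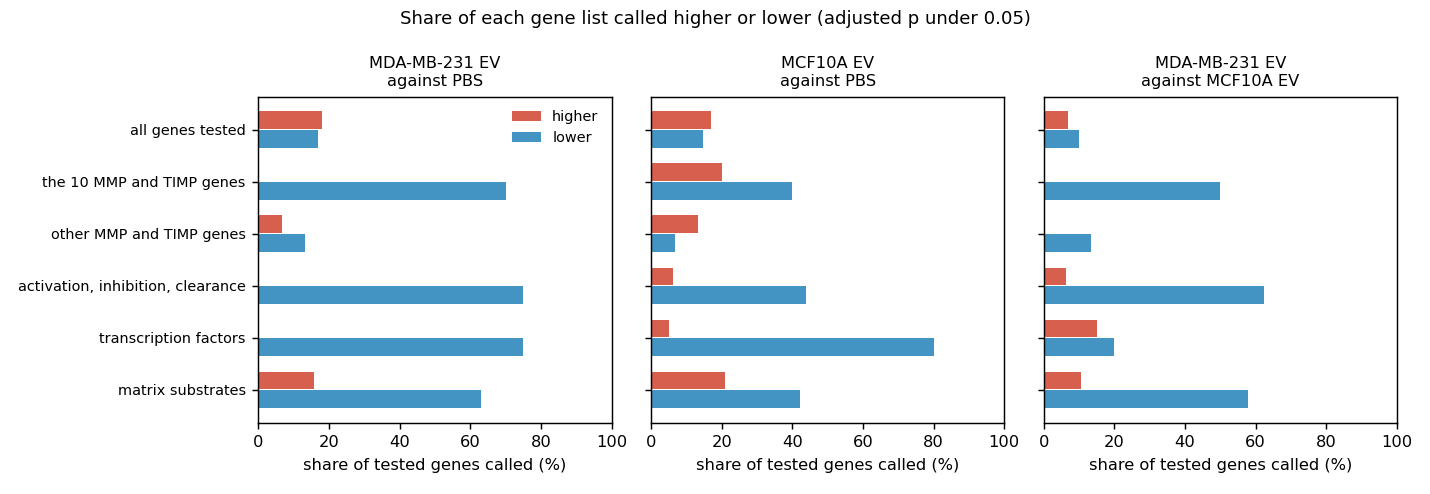
Share of the tested genes of each list called higher or lower (adjusted p under 0.05) in the 3 comparisons, beside all genes tested. With MDA-MB-231 EVs relative to PBS, 7 of the 10 MMP and TIMP genes, 12 of 16 genes of activation, inhibition and clearance, 15 of 20 transcription factors and 12 of 19 matrix substrates were lower, against 16.9% of all genes tested.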

How the data were processed

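RNA was sequenced from 6 libraries of NIH3T3 cells, 2 in each of 3 groups, with a stranded mRNA kit per the labels' protocols. The submitters' processing notes name TopHat2, edgeR and hg19, a human build, although the gene names are of mouse; for the mouse build and the counting rule, nothing is given in these sources. The deposited table holds normalised read signal per gene. From its values, these are edgeR quantile-adjusted pseudo-counts: with 5 relative library sizes and 1 common dispersion (0.000591), 122850 of 122850 values (100.0%) came out as whole reads within 1e-06. The recovered reads gave 22451173 to 29315530 reads per library and were used for CPM and for the count tests.

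The main test was limma 3.58.1 in R 4.3.3 (linear model of 3 groups, empirical Bayes with a variance trend) on log2(value + 1), for the 15025 genes reaching 1 normalised read in 2 or more libraries, 2-sided, with Benjamini-Hochberg adjustment over all of them and a call under 0.05. Fold changes are on that log2 scale, which understates the change of weakly read genes. There were 3 residual and 11.5 prior degrees of freedom. Tests on the recovered reads with edgeR 4.0.16 and DESeq2 1.42.0, other pseudocounts (0.5 and 5), filters, scalings and left-out libraries were the alternatives. The scripts were tested on simulated data.

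All 10 members are named in every comparison; of each list, up to 2 called genes per direction and comparison with the largest change could be named, among those averaging at least 100 normalised reads, and a selection of these is given, while every tested gene of the other MMP and TIMP genes could be named. The members and gene lists were chosen with earlier results of these data known. Promoter windows come from RefSeq (GRCm38.p6) by symbol, for 7 of the 10 members. Likeness is the root mean square difference between centred log2 profiles over the 6 libraries. Cd68 was not analysed here, and Adgre1 was read under its older symbol, Emr1. A result for 1 gene of the lists is not reported here.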

Additional observations from a re-analysis of the deposited data

Results flagged for a closer look

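The effects of the EV groups relative to PBS had opposite signs for 2 of the 10 genes. The direct difference between the EV groups passed the test for both (limma, Benjamini-Hochberg adjusted p under 0.05). Between the EV groups, 16.9% of all genes tested were called. The share of all genes with opposite signs was not worked out. For Mmp3, the log2 change relative to PBS was -0.58 with MDA-MB-231 EVs and 0.18 with MCF10A EVs, a difference of -0.76 (adjusted p = 2.33e-10). Both MDA-MB-231 EV libraries lay below both PBS libraries, and both MCF10A EV libraries above them. The rise of Mmp3 with MCF10A EVs was not called under limma without a variance trend (adjusted p = 0.0634). For Timp1, the changes were -0.12 with MDA-MB-231 EVs and 0.13 with MCF10A EVs. Their difference was -0.25 (adjusted p = 6.09e-05), with the same arrangement of libraries. That call was lost under limma without a variance trend (adjusted p = 0.0677), as were both calls relative to PBS (adjusted p = 0.0993 and 0.103). The lower call relative to PBS was also lost with scaling by library totals (-0.06, adjusted p = 0.165).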

How the results depend on the processing

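Over the alternatives, 499 of 537 log2 changes of members kept their direction and their side of the threshold, 28 lost a call, 5 gained one and 5 changed sign. Limma without a variance trend lowered many counts: with it, 3346 of all genes (main 5231) were called for MDA-MB-231 EVs against PBS; for MCF10A EVs against PBS, 3 members (0 higher), 25 list genes and 2231 of all genes (main 4764); and between the EV groups, 3 members (3 lower), 7 list genes and 378 of all genes (main 2541). Of the list counts, transcription factors lower with MCF10A EVs were then 10 (main 16), substrates 4 (main 8), and between the EV groups control genes and substrates lower were 3 each (main 10 and 11). Scaling by library totals and quantile scaling each added 1 higher member (Timp2) for MDA-MB-231 EVs against PBS and against MCF10A EVs. DESeq2 called 1515 of all genes between the EV groups. Leaving out each library in turn gave 1 to 2 higher members for MCF10A EVs against PBS (1 without PBS replicate 1) and 1425 to 2257 of all genes between the EV groups, where leaving out MCF10A EV replicate 1 gave 1425, replicate 2 1668 and MDA-MB-231 EV replicate 2 1646. Signs changed between the EV groups only for differences that were not called: Mmp2 (0.0146) and Mmp9 (-0.0048) with quantile scaling, Mmp14 (-0.0224 without MCF10A EV replicate 2, -0.0125 without MDA-MB-231 EV replicate 2, and a range of -0.0224 to 0.0253 over left-out libraries) and Mmp9 (-0.414 without MDA-MB-231 EV replicate 1, with a range of -0.414 to 0.503). The cause was not tested. Replicate numbers did not pair the libraries (correlations of deviations -0.00648, -0.00442 and 0.0188), and a replicate block gave 7, 6 and 5 members called and 5187, 4746 and 2560 of all genes. With 2 libraries a group and few reads, Mmp9 could not be resolved.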

Other observations

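The genes whose profiles over the 6 libraries lay closest to that of Mmp13, among 10309 genes searched, were Gpr35, an orphan G protein-coupled receptor, Il6, an inflammatory cytokine, and Tnn, a tenascin. Their root mean square differences from Mmp13 were 0.091, 0.091 and 0.13 on the log2 scale. Il6 averaged 461 ± 29.5 normalised reads in MDA-MB-231 EV cells, 945 ± 56.9 in MCF10A EV cells and 1986 ± 121 in PBS cells (SD, n = 2 each). Gpr35 averaged 299.5 ± 4.45 in MDA-MB-231 EV cells, 554 ± 0.12 in MCF10A EV cells and 1288 ± 53.5 in PBS cells. No other member came near Mmp13, the closest being Mmp10 at 0.63.

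For Mmp10 the closest genes were Creld2, a protein of the endoplasmic reticulum, Nrp1, a semaphorin and VEGF co-receptor, and Rcan1, a calcineurin inhibitor, at 0.045, 0.047 and 0.050. Nrp1 averaged 3292 ± 107 normalised reads in MDA-MB-231 EV cells, 5466 ± 200.4 in MCF10A EV cells and 5407 ± 47.5 in PBS cells. Among the members themselves, Mmp2 and Mmp14 (0.054), Timp2 and Timp3 (0.062) and Mmp3 and Mmp10 (0.11) were each other's closest. Timp1 lay closest to Timp3 (0.081) and Mmp19 to Mmp14 (0.096). For Mmp9, read by at most 22 reads in a library, the closest gene differed by 0.22. These are descriptions over 6 libraries that share group structure.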
